A study of Mus musculus with 12 samples.

Results

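The 10 genes described here mark pericytes and smooth muscle cells, the mural cells that wrap blood vessels. They were chosen by gene symbol (Rgs5, Pdgfrb, Cspg4, Acta2, Myh11, Tagln, Des, Mcam, Abcc9 and Kcnj8), and all 10 were among the 19547 genes of the deposited table and passed the filter on low counts. The RNA was that of 8 week fat grafts, all labelled C57BL/6, wild type and 16 weeks of age, with 4 libraries in each of 3 groups. In the CAL_Dll4i group (cell-assisted lipotransfer with Dll4 inhibition) ASC were added to the graft and Dll4, an endothelial Notch ligand, was inhibited. In the CAL group ASC were added without that inhibition, and the last group was control fat grafts. ASC commonly stands for stem or stromal cells of adipose tissue. Neither the source and number of these cells nor the agent against Dll4 is in the labels, which also do not tie samples to animals, so the p-values here reflect the spread among samples, which may be technical. Library totals ran from 55883051 to 70804141 counts, and the 10 genes had between 124 and 16439 counts in a library.

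Pericytes sit within the basement membrane of capillaries, and smooth muscle cells encircle arterioles, arteries and veins. Endothelial cells recruit both through the growth factor PDGF-B, whose receptor PDGFRB is carried by mural cells, and Notch signalling between endothelial and mural cells takes part in their maturation. Contractile genes such as Acta2, Tagln and Myh11 are activated by serum response factor (SRF), which binds a short sequence known as the CArG box together with its cofactor myocardin. Several of the 10 genes are also expressed elsewhere: Pdgfrb in fibroblasts and stromal progenitors, Des in skeletal muscle, Mcam in endothelial cells and Cspg4 in other progenitor cells.

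The sequences before a listed start of 5 of these genes are shown because the results turn on contractile genes, on the pericyte gene Rgs5, on Des and on the channel genes Kcnj8 and Abcc9, which are neighbours on chromosome 6 with 16.2 kb between them. A RefSeq table of assembly GRCm38.p6, the assembly of the submitters' build mm10, held a promoter for 7 of the 10 genes. Capitals mark the CArG box with up to 1 substitution among its inner letters, and the letters TGGGAA, the core bound by the Notch partner RBPJ, on either strand. Of Acta2, on the minus strand, the stretches chr19:34255438-34255467 (bases 94 to 65 before the listed start) and chr19:34255388-34255417 (bases 44 to 15) are shown. Both lie before the start that the promoter table lists, inside an annotated GENCODE exon of Acta2 and inside the full span of the gene. The windows of 250 bases before the listed start are shown for Rgs5 (chr1:169655251-169655500, plus strand), Des (chr1:75360042-75360291, plus strand) and Kcnj8 (chr6:142571615-142571864, minus strand). For Abcc9 the far end of that window is shown (chr6:142702425-142702524, minus strand). It lies inside the gene's full span, since the promoter table lists a start within the span, downstream of its upstream edge.
Acta2 distal: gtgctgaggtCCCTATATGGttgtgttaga
Acta2 proximal: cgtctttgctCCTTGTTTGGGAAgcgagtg
Rgs5: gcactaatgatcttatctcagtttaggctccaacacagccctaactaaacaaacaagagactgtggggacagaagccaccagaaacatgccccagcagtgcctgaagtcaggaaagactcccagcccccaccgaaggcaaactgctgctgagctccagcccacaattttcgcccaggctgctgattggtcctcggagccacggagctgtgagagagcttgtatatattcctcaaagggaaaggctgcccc
Des: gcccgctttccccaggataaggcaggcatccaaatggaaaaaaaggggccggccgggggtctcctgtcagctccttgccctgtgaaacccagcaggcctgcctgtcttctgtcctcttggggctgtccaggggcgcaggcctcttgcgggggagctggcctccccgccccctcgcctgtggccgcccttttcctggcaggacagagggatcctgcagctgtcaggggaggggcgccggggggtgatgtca
Kcnj8: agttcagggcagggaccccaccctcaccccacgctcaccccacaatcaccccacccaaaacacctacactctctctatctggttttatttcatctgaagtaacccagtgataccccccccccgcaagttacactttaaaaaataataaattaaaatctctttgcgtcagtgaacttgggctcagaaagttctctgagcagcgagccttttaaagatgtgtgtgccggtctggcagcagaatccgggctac
Abcc9: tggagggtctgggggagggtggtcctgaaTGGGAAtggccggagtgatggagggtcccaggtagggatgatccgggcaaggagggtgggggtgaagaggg

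Acta2 held 2 such near matches to the CArG box, the second of which shares letters with a TGGGAA, and Abcc9 held 1 TGGGAA. The windows of Rgs5, Cspg4, Des, Mcam and Kcnj8 held neither. Among all 32851 listed windows of 250 bases, 1.47% held an exact CArG box, 8.59% one with up to 1 substitution and 21.6% a TGGGAA. These matches describe letters only, and binding was not measured.

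By length-normalised level, the authors' deposited TPM, Pdgfrb was the highest of the 10 genes and Myh11 the lowest. Pdgfrb averaged 92.3 ± 13.7 TPM over all 12 libraries (SD), which placed it at percentile 88.7 among the genes of the table, and Myh11, the smooth muscle myosin heavy chain, averaged 4.64 ± 1.33 TPM, at percentile 36.0. Between them stood Mcam at 34.7 ± 6.87 TPM, Acta2 at 32.0 ± 10.5 TPM, Abcc9 at 22.7 ± 4.58 TPM and Rgs5 at 14.7 ± 3.12 TPM (SD, n = 12). Pdgfrb exceeded Mcam in 12 of 12 libraries and Abcc9 exceeded Rgs5 in 12 of 12, whereas Mcam exceeded Acta2 in 6 of 12, so the order of Mcam and Acta2 lay within their spread. Lower still were Tagln at 9.64 ± 3.64 TPM, Des at 6.67 ± 5.87 TPM, Kcnj8 at 5.58 ± 1.75 TPM and Cspg4 at 5.18 ± 0.805 TPM. Rgs5 exceeded Tagln in 12 of 12 libraries. Des exceeded Kcnj8 in 3 of 12 libraries although its mean was higher, and Kcnj8 exceeded Cspg4 in 7 of 12.

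**Figure D1:**
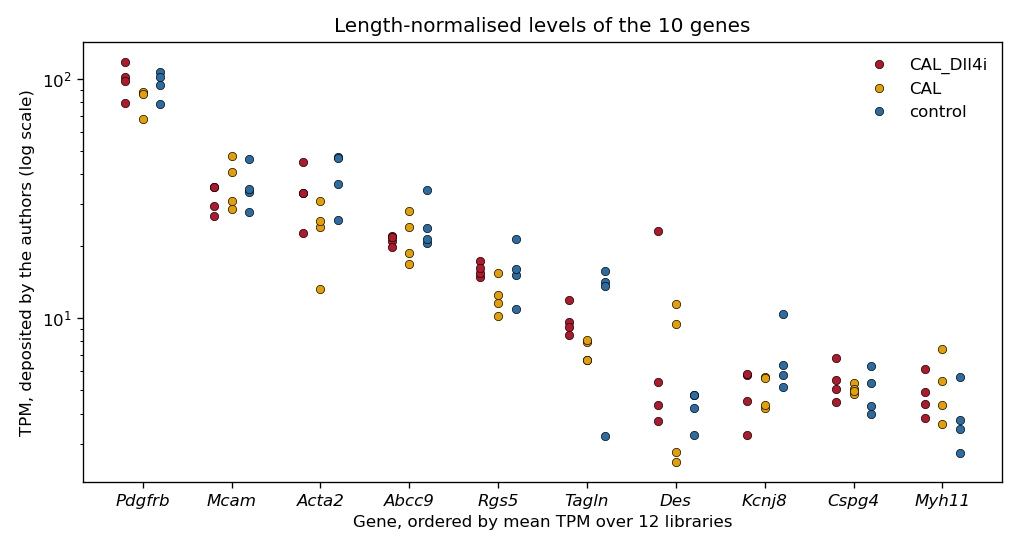
Deposited TPM on a log axis for the 10 genes, ordered by their mean over 12 libraries, with 1 point per library (CAL_Dll4i, CAL and control from left to right). Pdgfrb lies above the other 9 genes in every library, and Des spans the widest range, with 2.51 to 23.2 TPM.

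Other defining genes of these cells were unevenly detected. The pericyte gene Higd1b stood at 0.389 to 0.945 CPM (counts scaled to the library total with TMM factors) over the 12 libraries, and Myocd, which encodes myocardin, at 0.0608 to 0.405 CPM. Lmod1, a smooth muscle actin-filament regulator, stood at 0.168 to 0.933 CPM. Notch3, the Notch receptor of mural cells, was higher, at 41.6 to 99.9 CPM, and Myl9, a myosin light chain, stood at 2.48 to 7.48 CPM. Cnn1 and Actg2 were absent under these symbols from the deposited table, in which every gene has a count of at least 1 in each library. They could therefore not be analysed.

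Skeletal muscle RNA was present in 3 libraries. The skeletal muscle actin gene Acta1 was at 127 CPM in CAL_Dll4i replicate 3 and at 28.1 and 74.5 CPM in CAL replicates 1 and 2, against 0.393 to 2.91 CPM in the other 9. The summed level of 7 skeletal muscle markers was 11.5 to 705 CPM in CAL_Dll4i, 6.10 to 428 CPM in CAL and 4.61 to 10 CPM in control. That of 15 endothelial markers ran from 521 to 619 CPM in CAL_Dll4i, 446 to 629 CPM in CAL and 550 to 651 CPM in control. In CAL against control 5 of the 15 had higher and 10 lower estimates (median log2 fold change -0.15). By edgeR 0 passed there, and DESeq2 called 2 lower (Ecscr and Esam), where it called 3.32% of all genes. In CAL_Dll4i against CAL 11 were higher and 4 lower (median 0.09), and 0 passed by edgeR or DESeq2. In bulk tissue, fewer cells of a type and less RNA per cell cannot be told apart. Dll4 itself averaged 4.42 ± 0.399 CPM in CAL_Dll4i, 3.72 ± 0.536 CPM in CAL and 5.78 ± 0.836 CPM in control (SD, n = 4 each). Its adjusted p by edgeR was 0.132 in CAL against control and 0.714 in CAL_Dll4i against control. Since the way it was inhibited is not in the labels, its RNA level is no check of them.

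None of the 10 genes passed edgeR's quasi-likelihood test in any of the 3 comparisons (adjusted p under 0.05, Benjamini-Hochberg over 18551 genes). The share of all genes called was 0.00539% in CAL against control, 0% in CAL_Dll4i against CAL and 0% in CAL_Dll4i against control. At an unadjusted p under 0.05, 1 of the 10 genes was lower in CAL than in control (Acta2), against 7.57% of all genes, and 0 were higher, against 7.01%. In CAL_Dll4i against CAL, 2 genes were higher at that level (Rgs5 and Pdgfrb), against 4.47% of all genes, and 0 were lower, against 2.95%. In CAL_Dll4i against control 0 genes were higher and 0 lower, against 3.86% and 3.06% of all genes. DESeq2 and limma's voom with sample weights also called 0 of the 10 in each comparison. DESeq2 called 3.32%, 0.00539% and 0.329% of all genes in the 3 comparisons, and voom 0.474%, 0% and 0%.

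CAL had the lowest mean of the 3 groups for 6 of the 10 genes (Rgs5, Pdgfrb, Acta2, Tagln, Abcc9 and Kcnj8). Of the 10 genes, 4 had higher and 6 lower estimates in CAL than in control, against 48.4% and 51.6% of all genes. In CAL_Dll4i relative to CAL 8 were higher and 2 lower, against 51.3% and 48.7%, and relative to control 5 were higher and 5 lower, against 49.6% and 50.4%. The median log2 fold change of the 10 genes was -0.18 in CAL against control, where that of all genes was -0.01, and 0.24 in CAL_Dll4i against CAL, where that of all genes was 0.00. It was 0.01 in CAL_Dll4i against control. The comparisons share libraries, since each group enters 2 of them. Adipocyte markers, 10 genes, had 10 higher estimates in CAL than in control (median 0.85) and 10 lower in CAL_Dll4i than in CAL (median -0.65). By edgeR 0 passed in either comparison. At an unadjusted p under 0.05, 8 were higher in CAL than in control, against 7.01% of all genes. DESeq2 called 2 there, against 3.32%, and 4 were higher without overlap, against 3.61%. In CAL_Dll4i against CAL 1 was lower at an unadjusted p under 0.05, against 2.95%, and 6 without overlap, against 1.75%. Their summed level was 1490 to 1915 CPM in CAL_Dll4i, 1993 to 2848 CPM in CAL and 877 to 1923 CPM in control, and their part in the values of the 10 mural genes was not tested. The summed level of the 10 mural genes was 416 to 488 CPM in CAL_Dll4i, 349 to 424 CPM in CAL and 362 to 529 CPM in control.

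**Figure D2:**
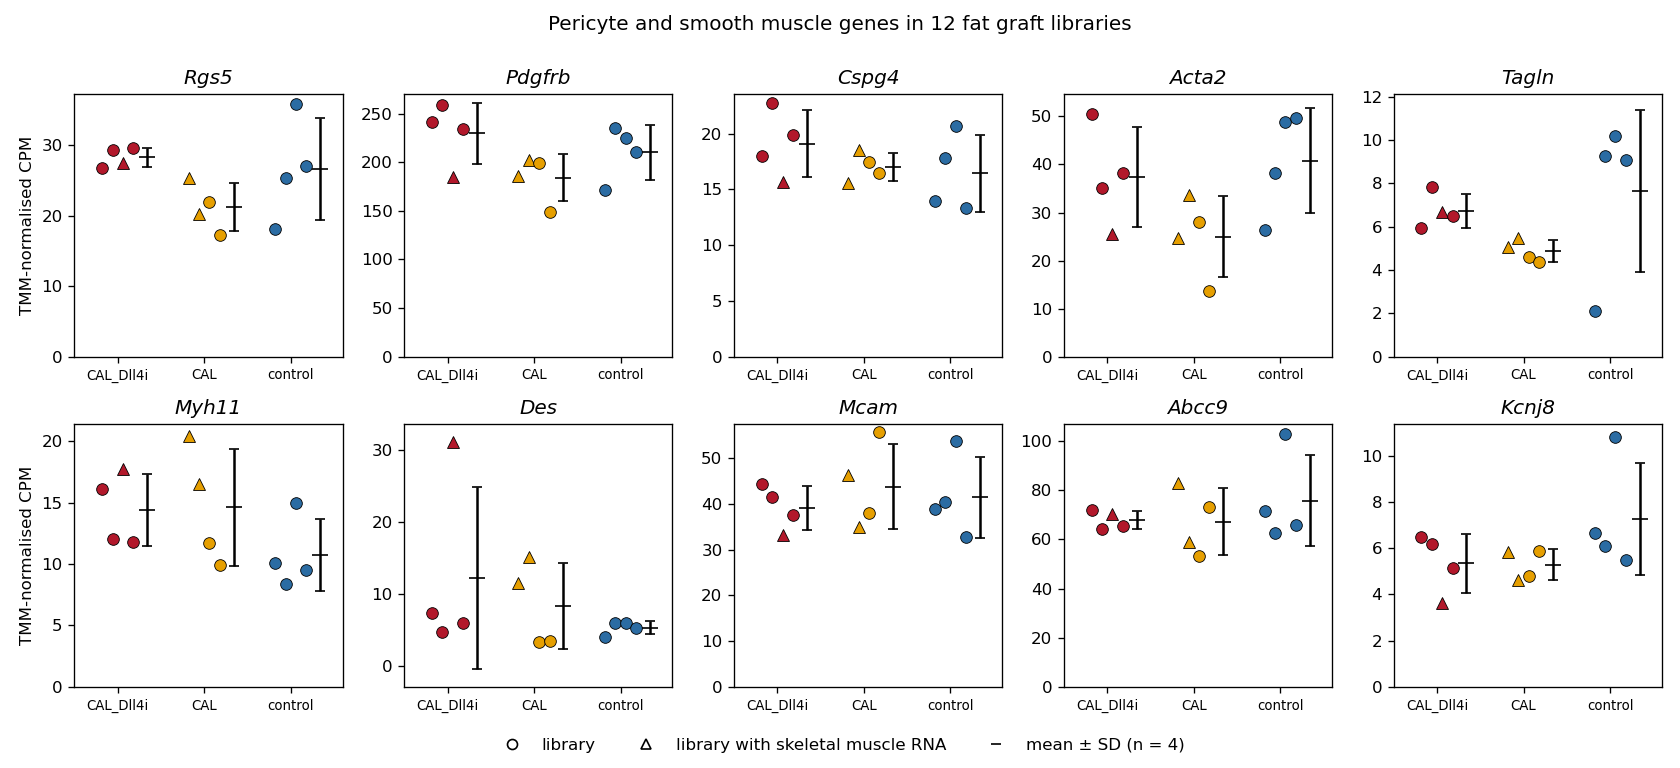
TMM-normalised CPM of each gene, with 1 symbol per library in CAL_Dll4i, CAL and control and the mean ± SD (n = 4) as a bar. Triangles are the 3 libraries with skeletal muscle RNA, and for Rgs5 and Tagln the CAL_Dll4i libraries lie above all CAL libraries.

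Rgs5 encodes a regulator of G protein signalling that is among the most used pericyte markers (chromosome 1, 169655501 to 169695813). It stood at 26.8, 29.3, 27.5 and 29.6 CPM in CAL_Dll4i replicates 1 to 4, at 25.3, 20.2, 22.0 and 17.2 CPM in CAL and at 18.1, 25.4, 35.8 and 27.1 CPM in control. The 4 CAL_Dll4i libraries lay above all 4 CAL libraries and within the range of the controls, which spread widely. Rgs5 and Tagln were the 2 genes of the 10 that were higher in CAL_Dll4i than in CAL without overlap, against 1.58% of all genes, and 0 were lower without overlap, against 1.75%. In CAL against control 0 were higher and 0 lower without overlap (3.61% and 3.75% of all genes), and likewise 0 and 0 in CAL_Dll4i against control (2.41% and 2.35%). The log2 fold change of Rgs5 between CAL_Dll4i and CAL was 0.42 ± 0.17 (SE), a 1.34-fold difference with a 95% interval of 1.03 to 1.74, and its adjusted p by edgeR's quasi-likelihood test was 0.659. In CAL against control it was -0.33 ± 0.17 (adjusted p = 0.403 by edgeR), or -0.15 ± 0.15 without control replicate 3, and in CAL_Dll4i against control 0.09 ± 0.17 (adjusted p = 0.924 by edgeR).

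Pdgfrb encodes the PDGF-B receptor through which mural cells are recruited (chromosome 18, 61045127 to 61085067). Its levels were 241, 259, 185 and 234 CPM in CAL_Dll4i replicates 1 to 4, 186, 202, 199 and 149 CPM in CAL and 171, 235, 225 and 210 CPM in control. CAL_Dll4i replicate 3, a library with skeletal muscle RNA, lay within the CAL range, and the other 3 CAL_Dll4i libraries lay above it. Between CAL_Dll4i and CAL the difference was 1.25-fold with a 95% interval of 1.03 to 1.52 (adjusted p = 0.659 by edgeR). In CAL against control it was 0.877-fold with an interval of 0.721 to 1.07 (adjusted p = 0.526 by edgeR). Markers of fibroblasts, which also carry this receptor, summed over 12 genes to 8278 to 9358 CPM in CAL_Dll4i, 6536 to 8572 CPM in CAL and 6698 to 8629 CPM in control. Their part in the Pdgfrb values was not tested.

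Cspg4 encodes the NG2 proteoglycan, a surface marker of pericytes (chromosome 9, 56865104 to 56899870). It varied little, at 15.7 to 22.8 CPM in CAL_Dll4i, 15.6 to 18.5 CPM in CAL and 13.3 to 20.7 CPM in control, and the 3 groups overlapped. Its coefficient of variation over the 12 libraries was 15.7%, against 90.6% for Des. The 95% interval of its fold was 0.827 to 1.29 in CAL against control and 0.899 to 1.40 in CAL_Dll4i against CAL.

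Acta2, smooth muscle actin, is the contractile gene most widely used to mark smooth muscle cells and activated fibroblasts (chromosome 19, 34240336 to 34255585). It stood at 50.6, 35.2, 25.5 and 38.3 CPM in CAL_Dll4i replicates 1 to 4, at 24.6, 33.7, 28.0 and 13.7 CPM in CAL and at 26.3, 38.3, 48.8 and 49.6 CPM in control. CAL libraries were low, with CAL replicate 4 the lowest of all 12, and control replicate 1 and CAL_Dll4i replicate 3 lay among them. The fold of CAL against control was 0.613 with a 95% interval of 0.391 to 0.962, and its adjusted p was 0.309 by edgeR. Acta2 in CAL_Dll4i was 1.5-fold its level in CAL, with an interval of 0.955 to 2.35 (adjusted p = 0.688 by edgeR). Without CAL replicate 4 that log2 fold change was 0.38 ± 0.26, against 0.58 ± 0.29 with it. Acta2 shares most of its coding sequence with other actin genes, which leaves the assignment of its reads partly uncertain. In the 3 libraries with Acta1 at 28.1 to 127 CPM, Acta2 stood at 24.6 to 33.7 CPM, within its range of 13.7 to 50.6 CPM in the other 9. The keratin gene Krt5, a myoepithelial marker, stood at 157 CPM in CAL_Dll4i replicate 1 (Acta2 50.6 CPM). It stood at 99.3 CPM in control replicate 4 (Acta2 49.6 CPM) and at 0.715 CPM in CAL replicate 4 (Acta2 13.7 CPM). In control replicate 3 (Acta2 48.8 CPM) it was at 6.26 CPM. The part of such cells in the Acta2 values was not tested.

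Tagln encodes transgelin, an actin-binding protein of smooth muscle (chromosome 9, 45929628 to 45936058). Its levels were 5.92, 7.81, 6.69 and 6.51 CPM in CAL_Dll4i, 5.06, 5.50, 4.58 and 4.38 CPM in CAL and 2.10, 9.26, 10.2 and 9.06 CPM in control, replicates 1 to 4 each. All CAL_Dll4i libraries lay above all CAL libraries. Of the controls, 3 lay above both other groups and control replicate 1 below both. The log2 fold change of CAL against control was -0.65 ± 0.36 (SE; adjusted p = 0.424 by edgeR). Without control replicate 1 it was -0.97 ± 0.12, and Tagln then passed edgeR's quasi-likelihood test (adjusted p = 0.0319). In that fit 6 of 18635 genes were called, and it gave the 1 call among the 10 genes under any alternative. The library left out was the control that lay below the CAL libraries, so this fit drops the value that went against the difference. Over the alternatives the adjusted p of Tagln in CAL against control ranged from 0.0319 to 0.699 by edgeR, DESeq2 and voom. An annotated antisense RNA, Gm48529, covers 62.4% of the exonic bases of Tagln, and no source used here says whether counting used strand, so its counts are uncertain.

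Myh11 (chromosome 16, 14194527 to 14292188), whose product is the motor of smooth muscle contraction, had a mean in CAL of 14.6 ± 4.75 CPM, against 10.7 ± 2.96 CPM in control (SD, n = 4 each). Its levels were 16.1, 12, 17.7 and 11.8 CPM in CAL_Dll4i, 20.4, 16.5, 11.7 and 9.88 CPM in CAL and 10.1, 8.35, 15 and 9.51 CPM in control, replicates 1 to 4 each. The groups overlapped, and the 3 libraries with skeletal muscle RNA were the 3 highest of the 12, at 16.5 to 20.4 CPM, against 8.35 to 16.1 CPM in the other 9. In CAL against control its log2 fold change was 0.45 ± 0.25 (SE; adjusted p = 0.431 by edgeR). It was 0.24 ± 0.24 without CAL replicate 1, and 0.01 ± 0.24 without those 3 libraries. The ratio of Myh11 to Acta2 CPM was 0.307 to 0.692 in CAL_Dll4i, 0.420 to 0.828 in CAL and 0.192 to 0.384 in control, with no test. The libraries with skeletal muscle RNA stood at 0.828 and 0.491 (CAL replicates 1 and 2) and at 0.692 (CAL_Dll4i replicate 3). CAL replicate 4, the lowest library for Acta2, stood at 0.721 and CAL replicate 3 at 0.420.

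Des encodes desmin, the muscle intermediate filament, which pericytes share with skeletal muscle (chromosome 1, 75360292 to 75368579). It stood at 7.33, 4.71, 31.1 and 5.95 CPM in CAL_Dll4i, at 11.6, 15.1, 3.31 and 3.5 CPM in CAL and at 4.06, 6.00, 5.99 and 5.37 CPM in control. The 3 libraries with skeletal muscle RNA held 11.6 to 31.1 CPM and the other 9 held 3.31 to 7.33 CPM, with no overlap. The log2 fold change of CAL against control was 0.64 ± 0.67 with all libraries and -0.65 ± 0.22 without these 3, with adjusted p = 0.691 and 0.432 by edgeR. The same values for CAL_Dll4i against CAL were 0.55 ± 0.66 and 0.82 ± 0.23 (adjusted p = 0.876 and 0.420 by edgeR), and in CAL_Dll4i against control 1.19 ± 0.67 and 0.16 ± 0.19 (0.724 and 0.886 by edgeR). Without CAL replicate 2 alone, Des stood at 0.19 ± 0.69 in CAL against control and at 1.00 ± 0.71 in CAL_Dll4i against CAL. Without CAL_Dll4i replicate 3 it stood at -0.48 ± 0.50 in CAL_Dll4i against CAL and at 0.16 ± 0.49 in CAL_Dll4i against control. CAL_Dll4i against CAL gave 0.28 ± 0.69 without CAL replicate 3 and 0.29 ± 0.69 without CAL replicate 4. Over its alternatives the adjusted p of Des ranged from 0.432 to 0.931 in CAL against control, from 0.420 to 0.999 in CAL_Dll4i against CAL and from 0.665 to 0.974 in CAL_Dll4i against control.

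**Figure D3:**
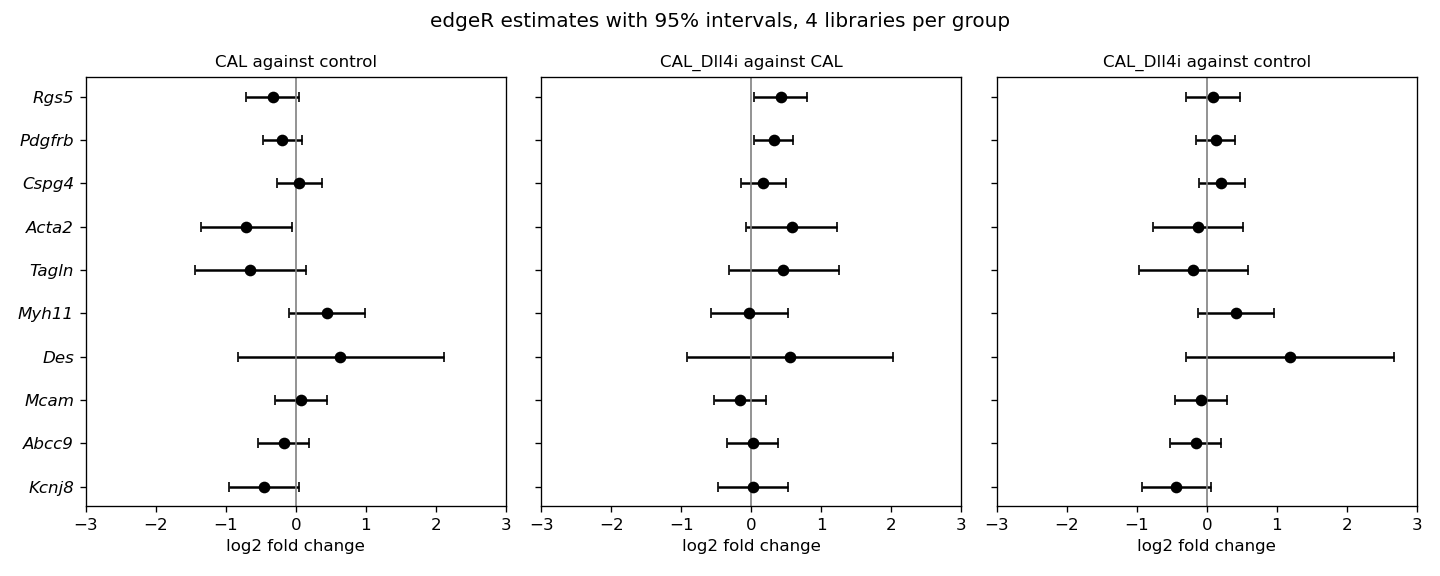
Log2 fold changes (x axis) of the 10 genes by edgeR in the 3 comparisons, with 95% intervals as bars and positive values meaning higher in the group named first. In each comparison Des has the widest interval of the 10 genes, from -0.83 to 2.12 in CAL against control, and Acta2 there has an interval from -1.36 to -0.06.

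Kcnj8 and Abcc9 encode the pore Kir6.1 and the regulatory subunit SUR2 of the ATP-sensitive potassium channel that relaxes mural cells (chromosome 6, 142564837 to 142571614 and 142587862 to 142702766). Kcnj8 stood at 6.47, 6.16, 3.64 and 5.14 CPM in CAL_Dll4i, at 5.82, 4.62, 4.79 and 5.89 CPM in CAL and at 6.64, 6.07, 10.8 and 5.47 CPM in control. Abcc9 stood at 71.8, 64.3, 70.4 and 65.6 CPM in CAL_Dll4i, at 83.1, 59.1, 53.4 and 73.3 CPM in CAL and at 71.4, 62.6, 103 and 66.0 CPM in control. Control replicate 3 was the highest library for both, and all groups overlapped. Kcnj8 had a fold of 0.729 in CAL against control (95% interval 0.517 to 1.03, adjusted p = 0.381 by edgeR) and 0.739 in CAL_Dll4i against control (0.524 to 1.04, adjusted p = 0.716 by edgeR). Without control replicate 3 the log2 fold change of Kcnj8 was -0.20 ± 0.19 in CAL against control and -0.18 ± 0.19 in CAL_Dll4i against control, where it was -0.46 ± 0.23 and -0.44 ± 0.23 with that library. Without CAL_Dll4i replicate 3 it was -0.29 ± 0.22 in CAL_Dll4i against control. That of Abcc9 in CAL against control was 0.01 ± 0.13 without control replicate 3, against -0.17 ± 0.17 with it. The ratio of Abcc9 to Kcnj8 in the deposited TPM was 3.60 to 6.71 in CAL_Dll4i, 3.86 to 4.93 in CAL and 3.30 to 4.18 in control. How evenly the library preparation recovered different genes was not tested, so this ratio may not be that of the RNAs or of the subunits.

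Mcam encodes the adhesion molecule CD146 of pericytes and endothelial cells (chromosome 9, 44134658 to 44142727). It stood at 33.2 to 44.3 CPM in CAL_Dll4i, 34.9 to 55.6 CPM in CAL and 32.8 to 53.6 CPM in control, and the groups overlapped. Its highest library was CAL replicate 4, which was the lowest of the 12 for Rgs5, Pdgfrb and Acta2. The 95% interval of its fold was 0.816 to 1.37 in CAL against control and 0.693 to 1.16 in CAL_Dll4i against CAL.

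Correlations of log2 CPM were computed over the 12 libraries for every pair of the genes. Of 45 pairs, 2 had an adjusted permutation p under 0.05 for Pearson's r over the pairs, and 0 for Spearman's rho. Pdgfrb and Acta2 correlated at r = 0.83 (permutation p = 0.00096, adjusted p = 0.0405) and rho = 0.80 (permutation p = 0.0026, adjusted p = 0.0585). Without the 2 libraries farthest from the Pdgfrb median r was 0.81, and within groups 0.83. Rgs5 and Tagln correlated at r = 0.79 (permutation p = 0.0018, adjusted p = 0.0405) and rho = 0.80 (permutation p = 0.0024, adjusted p = 0.0585), with r = 0.68 without the 2 farthest libraries and 0.78 within groups.

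Mcam and Kcnj8 correlated at r = 0.71 (permutation p = 0.00795, adjusted p = 0.0712) and rho = 0.68 (permutation p = 0.0176, adjusted p = 0.139), with r = 0.68 without the 2 farthest libraries and 0.87 within groups. The neighbours Abcc9 and Kcnj8 correlated at r = 0.70 (permutation p = 0.0218, adjusted p = 0.109) and rho = 0.52 (permutation p = 0.0842, adjusted p = 0.345). Without the 2 libraries farthest from the Abcc9 median r was 0.21. Leaving them out also narrows the range of Abcc9, which can lower r, so how far the relation rests on them cannot be told. For this pair r was 0.67 within groups and 0.93 without the 3 libraries with skeletal muscle RNA. Mcam against Acta2 gave r = -0.28 (permutation p = 0.387, adjusted p = 0.757) and rho = -0.15 (permutation p = 0.633, adjusted p = 0.868), with r = 0.15 without the 2 farthest libraries. No pooled correlation with Des is given, because the 3 libraries with skeletal muscle RNA form a cluster of their own.

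**Figure D4:**
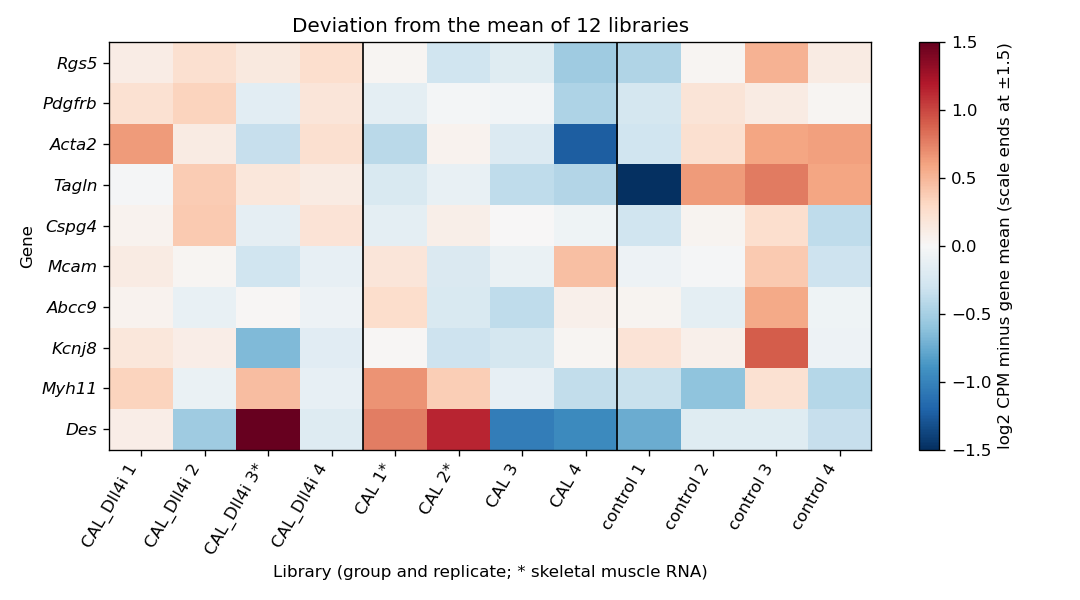
Log2 CPM of each gene (rows) minus its mean over the 12 libraries (columns, by group, asterisks for skeletal muscle RNA). CAL replicate 4 is the lowest library for Rgs5, Pdgfrb and Acta2 and the highest for Mcam, and control replicate 3 is the highest for Rgs5, Tagln, Abcc9 and Kcnj8.

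**Figure D5:**
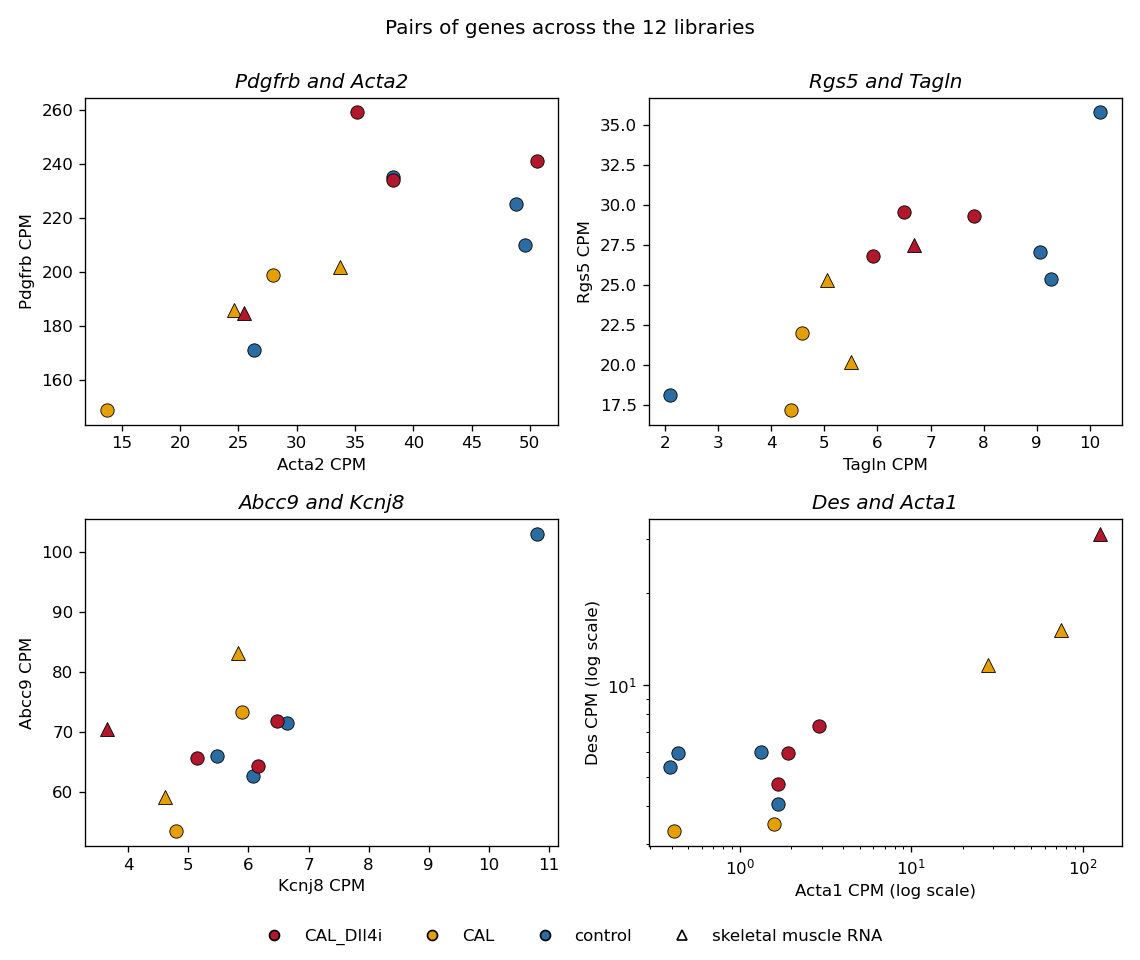
Pairs of genes by library in CPM, with log axes for Des and Acta1, coloured by group, and triangles for the 3 libraries with skeletal muscle RNA. Libraries high in Pdgfrb are also high in Acta2 (r = 0.83), and for Des and Acta1 the 3 triangles lie apart at 11.6 to 31.1 CPM of Des.

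The genes whose pattern over the 12 libraries was most like a given gene were ranked by Pearson's r of log2 CPM, as a description. Each r is among the largest over all other tested genes, and such a choice by itself gives high values with 12 libraries. For Rgs5 they were Tead2 (r = 0.943), Cfi (0.906), Ptgs1 (0.905), Gm13277 (0.904) and Tmem8 (0.895). For Myh11 they were Hnrnpa0 (r = 0.964), Ccdc71l (0.941), Ube2q1 (0.933), Ltbp4 (0.913) and an immunoglobulin kappa variable gene (0.900). The 3 libraries with skeletal muscle RNA were also the 3 highest for Myh11, and their part in these r values was not tested. For Des the first 5 in this ranking were Rbfox1, Ampd1, Myoz1, Nexn and Iglv2, named without r because of the cluster of 3 libraries. Myoz1, a skeletal muscle sarcomere gene, stood at 18.5 CPM in CAL_Dll4i replicate 3, at 3.68 and 7.52 CPM in CAL replicates 1 and 2 and at 0.198 to 0.649 CPM in the other 9 libraries.

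Of 19 further pericyte genes tested, 0 passed edgeR's test in any comparison. In CAL against control 10 estimates were higher and 9 lower (median log2 fold change 0.03). At an unadjusted p under 0.05 these were 6 and 3, against 7.01% and 7.57% of all genes. By DESeq2 5 of them were higher and 1 lower in that comparison, where it called 3.32% of all genes, and voom with sample weights called 0. Vtn, the gene of the adhesive glycoprotein vitronectin, averaged 12.1 ± 4.15 CPM in CAL and 4.42 ± 1.55 CPM in control (adjusted p = 0.132 by edgeR and 0.00038 by DESeq2). Tbx18, a mural cell transcription factor, averaged 14.9 ± 2.17 CPM in CAL and 23.5 ± 4.84 CPM in control (adjusted p = 0.15 by edgeR and 0.00465 by DESeq2). In CAL_Dll4i against control DESeq2 called Vtn alone of this list, where it called 0.329% of all genes. Vtn averaged 11.3 ± 2.19 CPM in CAL_Dll4i and 4.42 ± 1.55 CPM in control (adjusted p = 0.531 by edgeR and 0.00596 by DESeq2). At an unadjusted p under 0.05, 2 genes of the list were higher there and 1 lower, against 3.86% and 3.06% of all genes. Relative to CAL, 8 were higher in CAL_Dll4i and 11 lower, with a median of -0.08, and DESeq2 called 0.

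Of 24 further contractile smooth muscle genes, 13 had higher and 11 lower estimates in CAL than in control (median log2 fold change 0.04). By edgeR 0 passed, with 2 higher and 2 lower at an unadjusted p under 0.05 (7.01% and 7.57% of all genes). Cald1, which encodes the actin-binding protein caldesmon, averaged 61.5 ± 9.59 CPM in CAL and 81.2 ± 12.7 CPM in control (adjusted p = 0.23 by edgeR). Synpo2, an actin-associated gene of smooth and skeletal muscle, averaged 39.8 ± 8.69 CPM in CAL and 26.7 ± 5.97 CPM in control (adjusted p = 0.208 by edgeR and 0.0469 by DESeq2). Relative to CAL, 19 of the 24 in CAL_Dll4i had higher estimates (median 0.10), and in CAL_Dll4i against control also 19 (median 0.14). By edgeR 0 passed in either, with 2 higher and 1 lower in each at an unadjusted p under 0.05 (4.47% and 2.95% of all genes relative to CAL, 3.86% and 3.06% relative to control). Their summed level was 2825 to 2884 CPM in CAL_Dll4i, 2517 to 2895 CPM in CAL and 2505 to 2900 CPM in control.

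Regulators of contractile genes had lower estimates in CAL than in control in 11 of 16 cases (median log2 fold change -0.15) and higher estimates in CAL_Dll4i than in CAL in 11 of 16 (median 0.13). By edgeR 0 passed in either comparison, and at an unadjusted p under 0.05 there were 4 lower in the first, against 7.57% of all genes, and 3 higher in the second, against 4.47%. Tead1, a transcription factor of the Hippo pathway, averaged 72.5 ± 2.29 CPM in CAL_Dll4i and 56.8 ± 8.37 CPM in CAL (adjusted p = 0.659 by edgeR). Hes1, a Notch target, averaged 7.77 ± 1.62 CPM in CAL_Dll4i and 5.22 ± 0.333 CPM in CAL (adjusted p = 0.659 by edgeR). Heyl, a Notch target of mural cells, averaged 5.16 ± 1.01 CPM in CAL_Dll4i and 3.87 ± 1.62 CPM in CAL (adjusted p = 0.769 by edgeR), and Notch3 averaged 83.8 ± 12.9 CPM in CAL_Dll4i and 66.7 ± 19.9 CPM in CAL (adjusted p = 0.744 by edgeR).

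Of 21 genes for signals and contacts between endothelial and mural cells, 17 had lower estimates in CAL than in control (median log2 fold change -0.19). These genes do not all act the same way on mural cell recruitment, which was not measured, so the count gives no direction for it. By edgeR 0 passed, with 6 lower at an unadjusted p under 0.05, against 7.57% of all genes. DESeq2 called 3 lower (Angpt2, Dll4 and Cdh2), against 3.32% of all genes called, and voom with sample weights called 1, Angpt2 (adjusted p = 0.0436), against 0.474%. Angpt2, the angiopoietin that loosens the contact between endothelium and pericytes, averaged 11.4 ± 1.15 CPM in CAL and 19.9 ± 3.15 CPM in control (adjusted p = 0.0969 by edgeR and 2.74e-05 by DESeq2). Its partner Angpt1 averaged 19.4 ± 3.82 CPM in CAL and 21.8 ± 4.30 CPM in control (adjusted p = 0.653 by edgeR). Cdh2, the N-cadherin that joins pericytes to endothelium, averaged 18.8 ± 4.8 CPM in CAL and 29.8 ± 6.16 CPM in control (adjusted p = 0.198 by edgeR and 0.0359 by DESeq2). Relative to CAL, 15 of the 21 were higher in CAL_Dll4i (median 0.07), with 3 higher at an unadjusted p under 0.05 (4.47% of all genes), and 0 passed by edgeR or DESeq2. In CAL_Dll4i against control 8 were higher and 13 lower (median -0.04), and 0 passed by edgeR or DESeq2. At an unadjusted p under 0.05 there were 0 higher and 3 lower, against 3.86% and 3.06% of all genes. Without overlap 0 were higher and 3 lower, against 2.41% and 2.35%. Angpt2 averaged 14.4 ± 2.16 CPM in CAL_Dll4i and 19.9 ± 3.15 CPM in control (adjusted p = 0.698 by edgeR).

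A list of 9 genes of PDGF signalling was not limited to PDGF-B, and held among others Pdgfa, Pdgfc, Pdgfd and Pdgfra. Of these 9 genes, 6 had higher estimates in CAL than in control (median log2 fold change 0.04). There 0 passed by edgeR, DESeq2 or an unadjusted p under 0.05. In CAL_Dll4i against CAL 6 were higher and 3 lower (median 0.02). At an unadjusted p under 0.05 these were 2 (Pdgfa and Pdgfra) and 0, against 4.47% and 2.95% of all genes. In CAL_Dll4i against control 7 were higher and 2 lower (median 0.07). At that level these were 2 (Pdgfa and Pdgfra) and 1 (Pdgfd), against 3.86% and 3.06%. Pdgfra was also among the fibroblast markers. Pdgfa averaged 7.43 ± 0.743 CPM there and 5.55 ± 1.1 CPM in control, and Pdgfd 13.0 ± 1.44 and 16.9 ± 2.11 CPM. Their adjusted p by edgeR was 0.714 each, and 0 genes passed in either comparison. Pdgfb, the endothelial ligand of the Pdgfrb product, averaged 14.6 ± 1.86 CPM in CAL and 13.3 ± 1.03 CPM in control (adjusted p = 0.672 by edgeR). Its mean was 14.8 ± 2.61 CPM in CAL_Dll4i, against 14.6 ± 1.86 CPM in CAL (adjusted p = 0.984 by edgeR). Of 19 genes of vascular tone, 10 had higher and 9 lower estimates in CAL than in control (median log2 fold change 0.00). Relative to CAL, 11 were higher in CAL_Dll4i and 8 lower (median 0.04), and by edgeR 0 passed in either comparison. At an unadjusted p under 0.05, 7 were lower in CAL than in control, against 7.57% of all genes, and 6 were higher in CAL_Dll4i than in CAL, against 4.47%. Kcnma1, a calcium-activated potassium channel, averaged 12.3 ± 0.502 CPM in CAL_Dll4i and 8.16 ± 1.67 CPM in CAL (adjusted p = 0.659 by edgeR). Pde3a, a phosphodiesterase of cyclic nucleotides, averaged 5.81 ± 0.824 CPM in CAL and 7.68 ± 0.444 CPM in control (adjusted p = 0.194 by edgeR and 0.0358 by DESeq2).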

How the data were processed

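Gene expression was measured in 12 fat graft libraries, 4 per group. Libraries were made from total RNA with a SureSelectXT RNA Direct kit, per the labels' protocols. The submitters' processing notes name HISAT2, StringTie and mm10, with no version. The authors deposited estimated counts, in whole numbers and unscaled. Their deposited TPM, with library sums of 995155 to 998891, served to compare levels between genes. How evenly the kit recovered different genes was not tested, so the order of genes by TPM may partly reflect it. The deposited FPKM values of the authors were not used further. Every gene in the table has a count of at least 1 in each library.

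Testing used edgeR 4.0.16 under R 4.3.3 on these whole counts (TMM, filterByExpr at its defaults, 18551 genes, robust quasi-likelihood test, 1 coefficient per group, all 12 libraries), with adjusted p under 0.05 as the threshold. SE values are the size of the log2 fold change over the square root of the F statistic. DESeq2 1.42.0 and limma 3.58.1 were alternatives. Permutation tests of correlations used 100000 draws. The 10 genes and 13 further gene lists were chosen with earlier results of these data known. Named genes are the 10, up to 3 per list and comparison with the smallest p, 12 fixed genes and the 5 most alike for Rgs5, Myh11 and Des. Annotated exons came from GENCODE M21, and promoters and positions from RefSeq. The scripts were checked on simulated counts. Plots were made in matplotlib 3.10.9 under Python 3.11.15.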

Additional observations from a re-analysis of the deposited data

Results flagged for a closer look

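In 30 combinations of a gene and a group, 2 libraries stood apart from the other 3 of their group by Dixon's test at its 95% critical value. Chance flags about 1 in 20 groups. Tagln stood at 2.10 CPM in control replicate 1 and at 9.06 to 10.2 CPM in the other controls. Des stood at 31.1 CPM in CAL_Dll4i replicate 3 and at 4.71 to 7.33 CPM in the other CAL_Dll4i libraries. Acta1, skeletal muscle actin, was also highest in that library, at 127 CPM.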

How the results depend on the processing

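Of 450 values of the 10 genes under alternatives, 425 kept their direction and side of the threshold, 24 changed sign and 1 (Tagln, described above) passed the test. In CAL against control the log2 fold change of Cspg4 was -0.02 without control replicate 1 and -0.04 without control replicate 4, that of Mcam -0.02 without control replicate 4 and -0.06 without CAL replicate 4, that of Abcc9 0.01 without control replicate 3 and that of Des -0.65 without the 3 libraries with skeletal muscle RNA. In CAL_Dll4i against CAL, Myh11 stood at 0.18 without CAL replicate 1, 0.04 without CAL replicate 2, 0.05 without CAL_Dll4i replicate 2 or 4 and 0.29 without the 3 libraries. Kcnj8 stood at -0.04 and -0.02 without CAL replicates 2 and 3, and at -0.08 and -0.06 without CAL_Dll4i replicates 1 and 2. Abcc9 stood at -0.04 and -0.08 without CAL replicates 2 and 3 and at -0.01 without CAL_Dll4i replicate 1, and Des at -0.48 without CAL_Dll4i replicate 3. In CAL_Dll4i against control, Rgs5 stood at -0.06 without control replicate 1, Mcam at 0.07 and Abcc9 at 0.03 without control replicate 3, and Acta2 at 0.02 without CAL_Dll4i replicate 3 or the 3 libraries. Without single libraries, the values of these genes ran in CAL against control from -0.04 to 0.18 for Cspg4, -0.06 to 0.23 for Mcam and -0.29 to 0.01 for Abcc9. Relative to CAL, those in CAL_Dll4i ran from -0.18 to 0.18 for Myh11, -0.08 to 0.14 for Abcc9, -0.08 to 0.17 for Kcnj8 and -0.48 to 1.00 for Des, and relative to control from -0.06 to 0.27 for Rgs5, -0.30 to 0.02 for Acta2, -0.18 to 0.07 for Mcam and -0.24 to 0.03 for Abcc9. The causes were not tested.

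The number of all genes called in CAL against control was 1 by edgeR, 616 by DESeq2, 88 by voom, 0 with only the compared groups in the fit, 0 without the 3 libraries and 0 to 6 without single libraries. It was 1 by DESeq2 in CAL_Dll4i against CAL and 61 in CAL_Dll4i against control, against 0 in each by edgeR. The number of the 10 genes called in CAL against control was 0 to 1 without single libraries. Same-numbered libraries did not deviate together (r from -0.385 to 0.144), so no pairing by number was seen. A weak pairing could be missed with 4 libraries per group. With the replicate block 1, 0 and 0 genes were called in the 3 comparisons. Leaving out the 3 libraries left 2 CAL libraries. The 10 genes had at least 124 counts in each library.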

Other observations

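The mural genes were also set against Pecam1, an endothelial junction gene, as ratios of CPM, with no test. The ratio of Rgs5 to Pecam1 was 0.192 to 0.275 in CAL_Dll4i, 0.167 to 0.249 in CAL and 0.144 to 0.250 in control. The ratio of Acta2 to Pecam1 was 0.203 to 0.364 in CAL_Dll4i, 0.133 to 0.316 in CAL and 0.209 to 0.369 in control. That of Pdgfrb to Pecam1 was 1.47 to 2.43 in CAL_Dll4i, 1.30 to 2.25 in CAL and 1.36 to 1.86 in control. The groups overlapped in all 3 ratios. Rgs5 did not overlap between CAL_Dll4i and CAL as a level, while its ratio to Pecam1 did.

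Markers of myoepithelial and keratin-bearing cells, which can express contractile genes, varied widely. The summed level of 6 such genes was 9.37 to 357 CPM in CAL_Dll4i, 7.89 to 78.1 CPM in CAL and 8.13 to 224 CPM in control. In CAL against control 6 of the 6 had lower estimates (median log2 fold change -0.63). In CAL_Dll4i 6 were higher than in CAL (median 1.1) and 6 higher than in control (median 0.55). In each comparison 0 passed by edgeR or DESeq2. Schwann cell markers, summed over 7 genes, stood at 87.5 to 95.5 CPM in CAL_Dll4i, 83.2 to 102 CPM in CAL and 70.8 to 112 CPM in control. Their part in the values of the mural genes was not tested.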
